A study of Mus musculus with 15 samples.

Results

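The genes described here code for flavoenzymes other than the NADPH oxidases that diphenyl iodonium (DPI) can inhibit. They were chosen by symbol: Por, Cyb5r3, Xdh, Nqo1, Nqo2, Aifm1, Dld, Etfa, Etfb and Etfdh. In the annotation used here, 9 of the 10 genes had at least 1 probe set of their own, 16 probe sets in all, and all 9 were among the 12701 genes tested. No probe set was assigned to Por in that annotation, and its transcript was not analysed here.

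RNA came from a dendritic cell line made from the epidermis of newborn mice of the A/J strain. It was hybridised to 15 Affymetrix mouse arrays, 3 in each of 5 groups: DPI together with dinitrofluorobenzene (DPI + DNFB), DPI alone, DNFB alone, hydrogen peroxide (H2O2) alone, and non-treated cells. DNFB is a contact allergen that reacts with proteins, and H2O2 is an oxidant. All groups are of this 1 line, doses and times are not given here, and the series text speaks of a vehicle where the sample titles say non-treated. Whether replicate arrays stem from separate cultures is not stated, and the p-values therefore reflect the spread of these arrays alone, which may be technical.

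Flavoenzymes hold FAD or FMN, both made from riboflavin, which take electrons from a donor and pass them on. DPI reacts with the reduced flavin and stops that transfer, and it acts on many flavoenzymes besides the NADPH oxidases against which it is mostly used. Por and Cyb5r3 carry electrons at the endoplasmic reticulum, Xdh works in purine breakdown, Nqo1 and Nqo2 reduce quinones, and Aifm1, Dld, Etfa, Etfb and Etfdh are mitochondrial. The arrays measured transcripts of these genes, not the activity of the enzymes.

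Signals are linear array intensities after each array was brought to the same trimmed mean of 500. Differences are log2 fold changes of the signal plus a pseudocount of 15, with the SE of the limma fit, and a difference passed where its Benjamini-Hochberg adjusted p over all genes was under 0.05. Signals of different probe sets are not compared with each other. Across genes, which are no independent replicates, arrays within a group had r of 0.946 to 0.973. The DPI + DNFB arrays differed from the rest in measures of RNA quality, replicate 2 least. Their beta-actin 3'/5' ratio was 2.07, 1.504 and 2.29, and the highest of the other 12 arrays was 1.53. Their Gapdh 3'/5' ratio ranged from 0.952 to 1.27, against at most 0.922 on the other 12. Calls of the members in comparisons with DPI + DNFB, and of genes named beside them in DPI + DNFB against DNFB, are therefore given also with the actin ratio as a covariate, and with only replicate 2, the array of lowest ratio in the group, wherever the call differs. Over all genes, the calls for DPI + DNFB against DNFB were 5617, and 2904 with the covariate and 3652 with only replicate 2. Of the dendritic cell markers, 14 of 15 were among the genes tested, with Cd74 at 24862 to 54250 and Itgax at 1958 to 3456, while Ccr7 was below the filter on dim probe sets and Cd207, which marks Langerhans cells, ranged from 22.3 to 1088. Flt3 ranged from 7.65 to 153 and Zbtb46 from 146 to 313. The summed signal of the 15 dendritic cell markers also differed between groups. It was 117236 to 127342 with DPI + DNFB, 97816 to 123347 with DPI and 92579 to 102936 with DNFB. With H2O2 it was 112657 to 127523, and in non-treated cells 89437 to 104179. Among the macrophage and monocyte markers, Csf1r ranged from 4990 to 18634 and Cd14 from 1093 to 14435. The summed signal of 7 macrophage and monocyte markers differed between groups, at 15456 to 17138 with DPI + DNFB, 12988 to 13937 with DPI, 23750 to 25040 with DNFB, 13811 to 18575 with H2O2 and 18953 to 23633 in non-treated cells. Kit, which mast cells also carry, led a mast cell sum of 751 to 779 with DPI + DNFB and of 1851 to 2051 in non-treated cells. That sum was 915 to 1145 with DPI, 1176 to 1847 with DNFB and 888 to 1199 with H2O2. Sums of keratinocyte and fibroblast markers, of which 2 of 8 and 2 of 7 were tested, were 199 to 578 and 341 to 810. The sum of 5 melanocyte markers, 2 of them tested, was 329 to 828 with DPI + DNFB, 225 to 569.7 with DPI, 176 to 277 with DNFB, 221 to 314 with H2O2 and 222 to 309 in non-treated cells. That of 5 endothelial markers, 1 of them tested, was 356 to 440.2 with DPI + DNFB, 435 to 522 with DPI, 198 to 296 with DNFB, 294 to 482 with H2O2 and 289 to 479 in non-treated cells. In bulk RNA, fewer cells of a type and less RNA per cell cannot be told apart, and the part of these markers in the results was not tested.

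The moderated F-test for any difference among the 5 groups passed for 9 of 9 members, against 63.4% of all genes. One of the 9, Nqo1, was above the filter on dim probe sets only through its DNFB arrays. Without it the F-test passed for 8 of 8. In the single comparisons, DPI with DNFB against DNFB alone had the most calls, 7 of 9 members, against 44.2% of all genes. Of these, 3 were higher, against 22.9% of all genes, and 4 lower, Nqo1 among them, against 21.3%. Without Nqo1 the count was 6 of 8. DPI alone against non-treated cells had 3 of 9, against 31.8%, with 1 higher, against 13.3%, and 2 lower, against 18.4%. DPI + DNFB against non-treated cells had 5 of 9, against 33.8%, with 2 higher, against 15%, and 3 lower, against 18.7%. With median centring 6 of the 9 passed there, 0 higher and 6 lower, and with the actin ratio as a covariate 0 passed (3 at an unadjusted p under 0.05, limma). DPI + DNFB against DPI had 2 of 9, against 27.8%, both of them lower, against 13.7%. DNFB alone gave 3 of 9, all lower, against 24.4%, with 13.9% of all genes lower. H2O2 alone gave 4 of 9, all lower, against 28.3%, with 17.4% of all genes lower. DNFB against H2O2 had 2 of 9, against 14.7%, both of them higher, against 8.75%. The interaction subtracts the DNFB effect in cells without DPI from that in cells with it. It passed for 4 of 9, against 31.1%, with 2 above 0, against 17.3%, and 2 below, against 13.8%. With 9 genes these counts describe the members and do not set them apart from other genes. Comparisons that use the same non-treated, DPI or DNFB arrays share them, so their values are set side by side only.

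**Figure D1:**
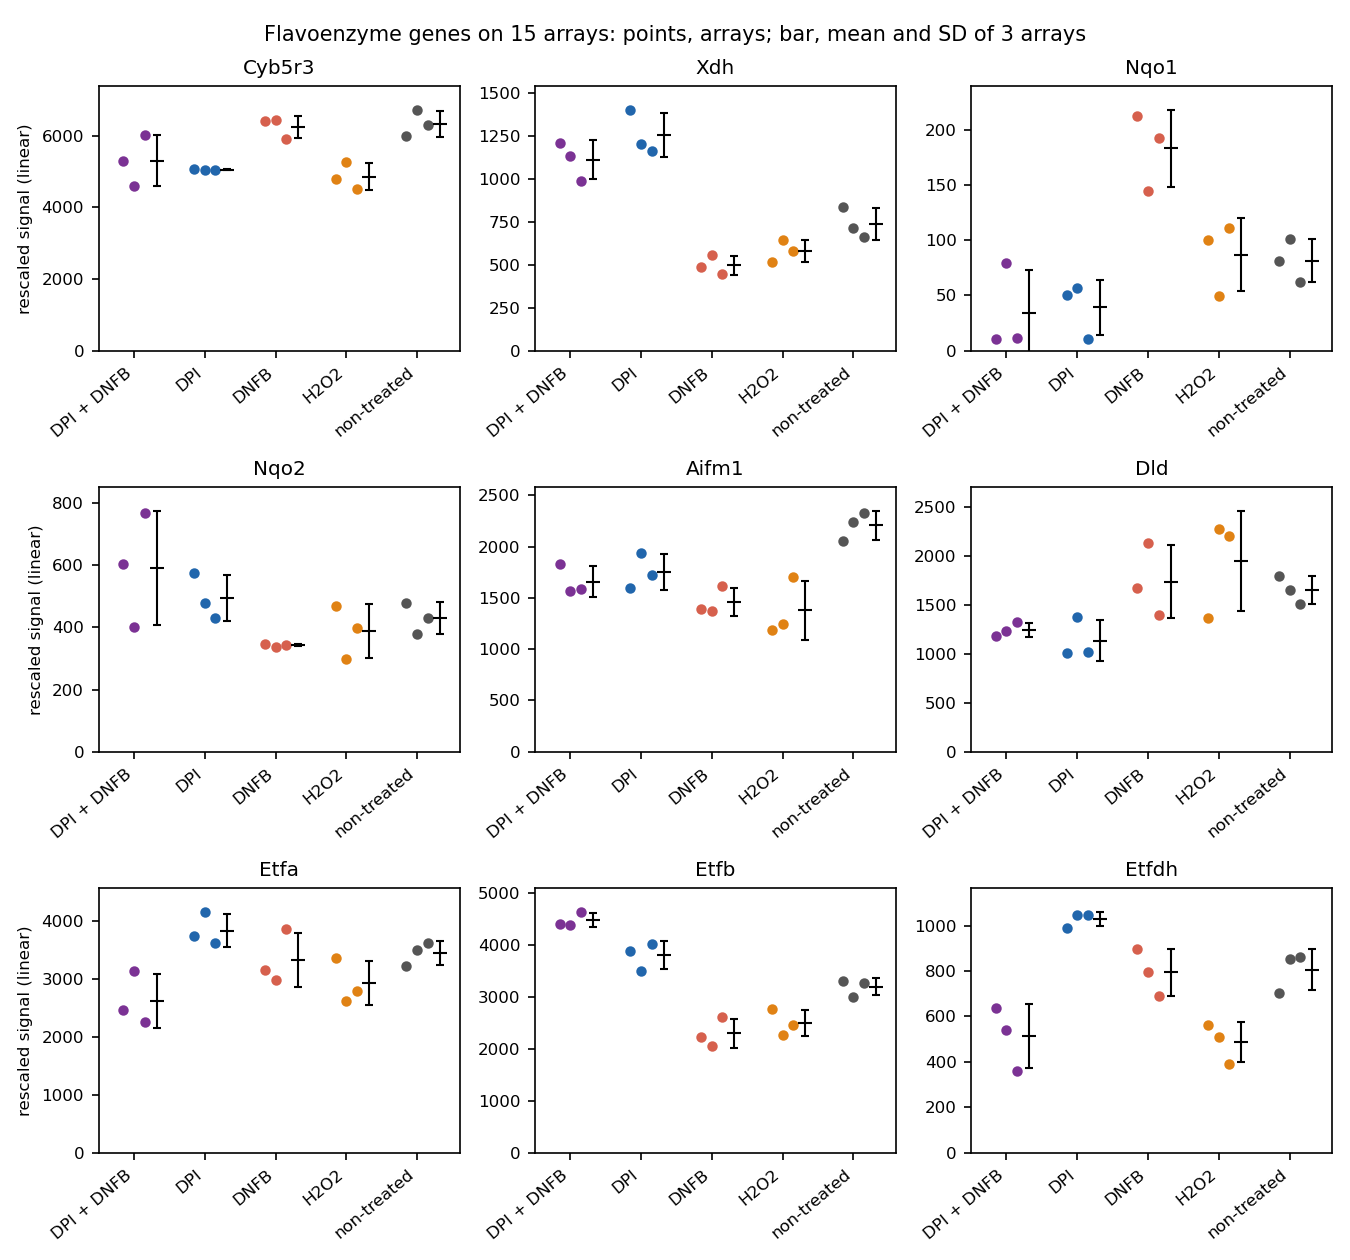
Rescaled linear signal (y axes, starting at 0) of the 9 measured flavoenzyme genes on each of 15 arrays, by group, with the probe set of highest mean signal per gene; points are arrays, and bars give the mean and SD of 3 arrays, with the lower Nqo1 bar of DPI + DNFB ending at the axis. Xdh lies at 986 to 1401 in both groups with DPI and at 444 to 836 in the 3 groups without it, and Etfdh lies at 360 to 638 with DPI + DNFB and at 389 to 563 with H2O2.

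Xdh, xanthine dehydrogenase, turns hypoxanthine into xanthine and uric acid, and its oxidase form passes electrons to oxygen. It was higher wherever DPI was present, and lower with DNFB alone. Its signal was 1211, 1136 and 986 with DPI + DNFB, 1401, 1202 and 1161 with DPI, 487, 556 and 444 with DNFB, 515, 645 and 580 with H2O2, and 836, 715 and 659 in non-treated cells. All 6 arrays with DPI were above all 9 without it, and the non-treated arrays lay above the H2O2 and DNFB arrays, which overlapped each other. Xdh rose by 0.76 ± 0.146 with DPI alone (SE, n = 3 each, limma adjusted p = 0.000481). With DNFB present, DPI raised it by 1.14 ± 0.146 (limma adjusted p = 3.07e-06), and without DPI, DNFB lowered it, with a log2 change of -0.56 ± 0.146 (limma adjusted p = 0.00733). The interaction of 0.38 ± 0.206 did not pass (limma adjusted p = 0.172), nor did H2O2 at -0.34 ± 0.146 (limma adjusted p = 0.0939). DPI + DNFB was above non-treated cells by 0.58 ± 0.146 (limma adjusted p = 0.00406), which was 0.33 with median centring (adjusted p = 0.148) and 0.51 with the actin ratio as a covariate (adjusted p = 0.251).

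**Figure D2:**
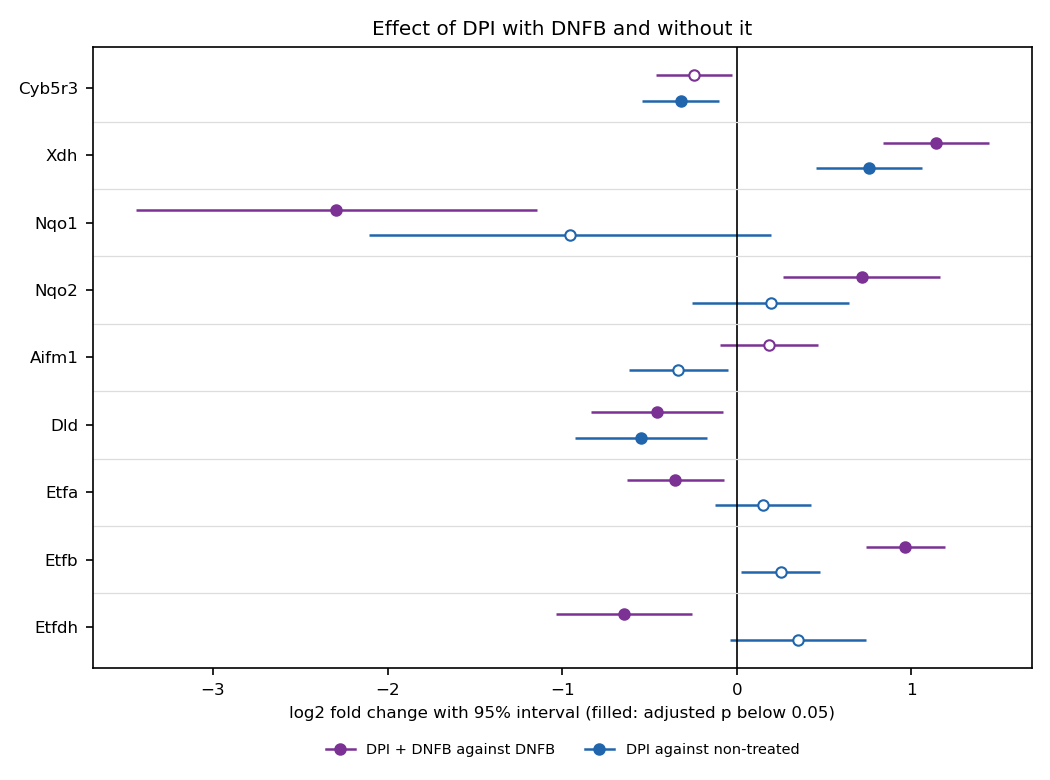
Log2 fold change (x axis) with its 95% interval for the 9 flavoenzyme genes, for DPI + DNFB against DNFB and DPI against non-treated; filled points have an adjusted p under 0.05. Xdh lies above 0 in both comparisons, at 1.14 and 0.76, and Dld below 0 in both, at -0.45 and -0.55, while Etfdh lies at -0.65 with DNFB present and at 0.35, not passed, without it.

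The genes listed with Xdh make its molybdenum cofactor or work in purine breakdown, and 15 of 20 were tested. Counts in this and the later lists stand beside the share of all genes that passed. That share was 31.8% with DPI, 44.2% with DPI in the presence of DNFB, 24.4% with DNFB and 28.3% with H2O2. Split into higher and lower, it was 13.3% and 18.4% with DPI, and 22.9% and 21.3% with DPI in the presence of DNFB. With DNFB it was 10.5% and 13.9%, and with H2O2 10.9% and 17.4%. With DPI alone 3 were higher and 4 lower, with a median log2 change of -0.05 against -0.01 over all genes. Ada, which deaminates adenosine, rose by 1.39 (limma adjusted p = 0.00136), and Ampd3, which deaminates AMP, fell by 1.91 on the log2 scale (limma adjusted p = 5.9e-08). Mocs3, of molybdenum cofactor synthesis, fell by 1.004 (limma adjusted p = 0.000276). With DNFB present, DPI gave 3 higher and 6 lower, with a median of -0.21 against 0.10 over all genes. There Mocos, the sulfurase that activates Xdh and Aox1, fell by 1.63 (limma adjusted p = 0.0262), Aox1, a molybdenum flavoenzyme close to Xdh, fell by 1.95 (limma adjusted p = 0.00668), and Mocs3 fell by 1.11 (limma adjusted p = 5.26e-05). With the actin ratio as a covariate 1 was higher and 3 lower, with the median at 0.04, and with only replicate 2 of DPI + DNFB the counts were the same and the median 0.03. Mocs3 passed in both, while Mocos was -1.57 (adjusted p = 0.237) with the covariate and -2.03 (adjusted p = 0.0814) with only replicate 2, and Aox1 -1.03 (adjusted p = 0.403) and -0.93 (adjusted p = 0.324). DNFB alone gave 1 higher, Mocos, and 2 lower, Ampd3 and Gphn.

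Etfa and Etfb are the subunits of the electron transfer flavoprotein, which collects electrons from the acyl-CoA dehydrogenases of fatty acid and amino acid breakdown, and Etfdh is the membrane enzyme that hands them to ubiquinone. With DPI + DNFB, Etfb was above non-treated cells while Etfa and Etfdh were below them. With the actin ratio as a covariate none of these 3 differences passed, and with median centring that of Etfb did not. Against DNFB alone, DPI + DNFB was higher in Etfb, at 0.97, and this passed in both of those alternatives.

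Etfb had a signal of 4420, 4398 and 4642 with DPI + DNFB, 3899, 3512 and 4020 with DPI, 2236, 2059 and 2608 with DNFB, 2768, 2275 and 2458 with H2O2, and 3306, 3006 and 3277 in non-treated cells. The groups stood in steps: DPI + DNFB above DPI, DPI above non-treated and non-treated above the DNFB and H2O2 groups without overlap, while DNFB and H2O2 overlapped each other. DPI raised Etfb by 0.97 ± 0.109 in the presence of DNFB (SE, n = 3 each, limma adjusted p = 7.03e-07). DPI alone gave 0.25 ± 0.109 and did not pass (limma adjusted p = 0.0883). DNFB alone lowered it, at -0.48 ± 0.109 (limma adjusted p = 0.00263), and H2O2 lowered it too, at -0.36 ± 0.109 (limma adjusted p = 0.0183). The H2O2 call ended when non-treated replicate 1 or 3, or H2O2 replicate 2 or 3, was left out, with values of -0.33, -0.34, -0.29 and -0.35. Against non-treated cells, DPI + DNFB was higher by 0.49 ± 0.109 (limma adjusted p = 0.00169), but by 0.24 with median centring (adjusted p = 0.135), 0.55 with the actin ratio as a covariate (adjusted p = 0.0868) and 0.46 with replicate 2 as the only array (adjusted p = 0.0509). The interaction was 0.71 ± 0.154 (limma adjusted p = 0.00139), and 0.44 with median centring (adjusted p = 0.0613).

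Etfdh had a signal of 638, 540 and 360 with DPI + DNFB, 991, 1045 and 1046 with DPI, 897, 794 and 691 with DNFB, 563, 509 and 389 with H2O2, and 703, 854 and 861 in non-treated cells. The DPI + DNFB and H2O2 arrays overlapped and lay below all other arrays, and the DPI arrays lay above all others. H2O2 lowered Etfdh, at -0.72 ± 0.186 (SE, n = 3 each, limma adjusted p = 0.00611). The difference of DPI alone from non-treated cells, at 0.35 ± 0.186, did not pass (limma adjusted p = 0.169), though it did in 1 of 34 alternatives. DNFB alone gave -0.02 ± 0.186 (limma adjusted p = 0.955) and stood above H2O2 by 0.70 ± 0.186 (limma adjusted p = 0.015). The difference between DNFB and H2O2 ended without DNFB replicate 1 (0.61, adjusted p = 0.0756) or H2O2 replicate 3 (0.55, adjusted p = 0.0875). DPI + DNFB was below DPI by 1.02 on the log2 scale, at -1.02 ± 0.186 (limma adjusted p = 0.000476), and the interaction was -0.997 ± 0.263 (limma adjusted p = 0.00657). With the actin ratio as a covariate these became -0.74 (adjusted p = 0.181) and -0.77 (adjusted p = 0.108). DPI + DNFB was also below DNFB, at -0.65 ± 0.186 (limma adjusted p = 0.00795), and below non-treated cells, at -0.67 ± 0.186 (limma adjusted p = 0.00876). Both calls ended without DPI + DNFB replicate 3, at -0.42 (adjusted p = 0.0625) and -0.44 (adjusted p = 0.0651), with replicate 2 as the only array, at -0.54 (adjusted p = 0.0726) and -0.56 (adjusted p = 0.0884), and with the covariate, at -0.40 (adjusted p = 0.341) and -0.37 (adjusted p = 0.551).

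Etfa had a signal of 2466, 3145 and 2256 with DPI + DNFB, 3738, 4161 and 3618 with DPI, 3159, 2987 and 3864 with DNFB, 3359, 2628 and 2803 with H2O2, and 3232, 3503 and 3627 in non-treated cells. DPI + DNFB was the lowest group on average, and its replicate 2 reached into the DNFB and H2O2 ranges. It was below DPI, at -0.56 ± 0.132 (SE, n = 3 each, limma adjusted p = 0.00374), below DNFB, at -0.35 ± 0.132 (limma adjusted p = 0.0371), and below non-treated cells, at -0.41 ± 0.132 (limma adjusted p = 0.0219). None of the 3 calls remained with the actin ratio as a covariate, where the values were -0.06 (adjusted p = 0.907), 0.09 (adjusted p = 0.72) and 0.13 (adjusted p = 0.726), the last 2 of opposite sign. With replicate 2 as the only array they were -0.28 (adjusted p = 0.308), -0.08 (adjusted p = 0.778) and -0.13 (adjusted p = 0.653). The difference from DNFB also ended without DNFB replicate 1 or 3 or DPI + DNFB replicate 1 or 3, with values of -0.39, -0.24, -0.31 and -0.25. That from non-treated cells ended without non-treated replicate 2 or 3 or DPI + DNFB replicate 1 or 3, with values of -0.40, -0.37, -0.37 and -0.31. The Etfa interaction was -0.50 ± 0.187 (limma adjusted p = 0.0475) and held only when DNFB replicate 2, H2O2 replicate 1 or 2, or DPI + DNFB replicate 2 was the array left out, over leave-one-out values between -0.64 and -0.39. It was -0.09 with the covariate (adjusted p = 0.777) and -0.23 with only replicate 2 of DPI + DNFB (adjusted p = 0.477).

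The starts of Etfb and Etfdh are shown because DPI + DNFB differed from DNFB upward in Etfb and, without the covariate, downward in Etfdh, and because both hold the same 10-base motif. The windows are the 250 bases before the RefSeq start on GRCm38.p6, for Etfb chr7:43443822-43444071 on the plus strand and for Etfdh chr3:79628768-79629017 on the minus strand. Capitals mark matches to GCGCA followed by any base and GCGC, the core bound by NRF1, a factor known for driving nuclear genes of the mitochondrion, searched on both strands.
Etfb: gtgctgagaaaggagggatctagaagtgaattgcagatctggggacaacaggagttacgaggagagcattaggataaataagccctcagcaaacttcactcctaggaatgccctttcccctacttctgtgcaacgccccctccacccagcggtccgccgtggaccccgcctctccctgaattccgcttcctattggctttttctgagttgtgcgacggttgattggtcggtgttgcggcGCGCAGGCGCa
Etfdh: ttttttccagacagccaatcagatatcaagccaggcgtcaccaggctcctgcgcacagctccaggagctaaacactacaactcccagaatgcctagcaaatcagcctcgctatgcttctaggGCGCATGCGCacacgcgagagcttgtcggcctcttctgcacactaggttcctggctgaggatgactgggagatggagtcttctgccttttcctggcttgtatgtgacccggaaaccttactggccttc
The match began 11 bases before the Etfb start and 128 bases before the Etfdh start, where it read the same on both strands. The motif was chosen after the values were seen, and 3.74% of the 32851 windows of that length hold it. Of the 10 members 8 had a window in the table, Cyb5r3 and Xdh being the others, and Etfb and Etfdh were the 2 with a match. A match describes letters and not binding.

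The dehydrogenases that feed the electron transfer flavoprotein, with its assembly factors, were a list of 16 genes of which 14 were tested. DNFB alone gave 4 calls, all lower, with a median of -0.16 against -0.06 over all genes, and H2O2 gave 6, all lower, with a median of -0.53 against -0.06. Acadm, the medium-chain acyl-CoA dehydrogenase, fell by 0.80 with DNFB (limma adjusted p = 1.8e-05), and Acads, the short-chain enzyme, fell by 0.54 (limma adjusted p = 0.0161). Gcdh, of lysine breakdown, fell by 1.43 with DNFB (limma adjusted p = 0.0153). DPI in the presence of DNFB raised 5 and lowered 1, with a median of 0.25 against 0.10 over all genes. Gcdh rose by 1.80 there (limma adjusted p = 0.00148) and Acads by 0.86 (limma adjusted p = 0.000188), while Etfrf1, a regulator of the flavoprotein, fell by 0.64 (limma adjusted p = 0.00114). With the actin ratio as a covariate 1 of these 6 calls was left, Gcdh, with Acads at 0.58 (adjusted p = 0.0833) and Etfrf1 at -0.33 (adjusted p = 0.268). With only replicate 2 of DPI + DNFB 2 were left, Gcdh and Acads, with Etfrf1 at -0.42 (adjusted p = 0.108). With DPI alone 1 was higher, Acadl at 0.35 (limma adjusted p = 0.0084), and 2 were lower.

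**Figure D3:**
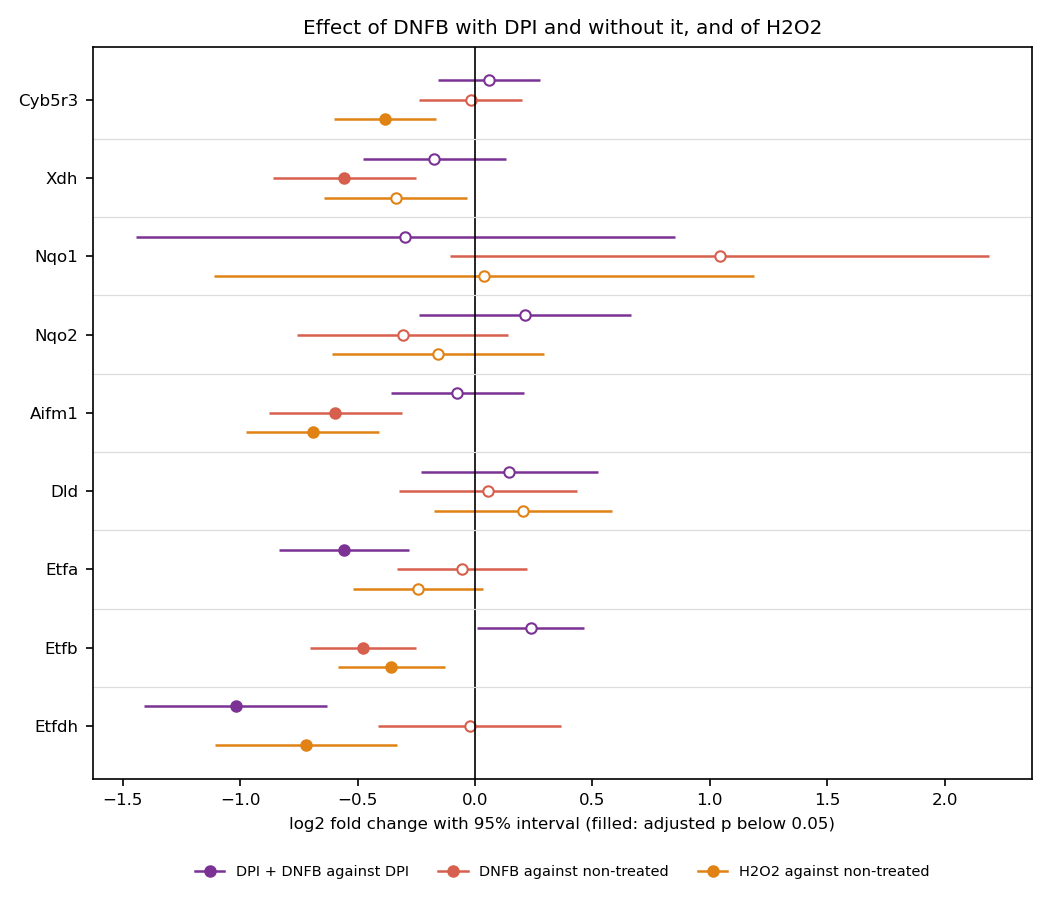
Log2 fold change (x axis) with its 95% interval for the 9 flavoenzyme genes, for DPI + DNFB against DPI, DNFB against non-treated and H2O2 against non-treated; filled points have an adjusted p under 0.05. Aifm1 and Etfb lie below 0 with both DNFB and H2O2, and Etfdh lies at -1.02 for DPI + DNFB against DPI and at -0.72 for H2O2.

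Aifm1, apoptosis-inducing factor, is a mitochondrial NADH oxidoreductase that supports assembly of the respiratory chain and can move to the nucleus in cell death. It was highest in non-treated cells. The signal was 1830, 1565 and 1581 with DPI + DNFB, 1592, 1935 and 1723 with DPI, 1393, 1368 and 1611 with DNFB, 1187, 1240 and 1706 with H2O2, and 2053, 2235 and 2330 in non-treated cells. Every treated array was below every non-treated one, and the 4 treated groups formed a chain of overlapping neighbours. DNFB lowered Aifm1, at -0.59 ± 0.135 (SE, n = 3 each, limma adjusted p = 0.00257), as did H2O2, at -0.69 ± 0.135 (limma adjusted p = 0.000638). DNFB and H2O2 differed by 0.10 ± 0.135, which did not pass (limma adjusted p = 0.716). DPI alone gave -0.33 ± 0.135 and did not pass (limma adjusted p = 0.0671), but did so without H2O2 replicate 3 (-0.33, adjusted p = 0.0358). DPI + DNFB was below non-treated cells, at -0.41 ± 0.135 (limma adjusted p = 0.0244), a call that ended without non-treated replicate 2 or 3 or DPI + DNFB replicate 2 or 3, with values of -0.40, -0.37, -0.37 and -0.38, with quantile normalization, at -0.32 (adjusted p = 0.0844), with cyclic loess, at -0.29 (adjusted p = 0.113), with the actin ratio as a covariate, at -0.43 (adjusted p = 0.307), and with replicate 2 as the only array, at -0.49 (adjusted p = 0.0906). The interaction was 0.52 ± 0.191 (limma adjusted p = 0.0451). It ended, with values of 0.45 to 0.51, without non-treated replicate 2 or 3, DNFB replicate 1 or 2, DPI replicate 1 or 3, or DPI + DNFB replicate 1, and was 0.24 with median centring (adjusted p = 0.451), 0.50 with the covariate (adjusted p = 0.164) and 0.44 with only replicate 2 of DPI + DNFB (adjusted p = 0.196).

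The list of Aifm1 partners in import and cell death had 9 of 10 genes tested. H2O2 gave 5 calls, all lower, with a median of -0.53 against -0.06 over all genes, and DNFB gave 2, both lower. Those 2 were Endog, a mitochondrial nuclease, which fell by 1.34 (limma adjusted p = 0.000597), and Parp1, which makes the poly(ADP-ribose) that releases Aifm1 from mitochondria and fell by 0.81 (limma adjusted p = 0.000502). With DPI alone 3 were higher and 2 lower, and Chchd4, which works with Aifm1 in protein import, fell by 1.04 (limma adjusted p = 6.88e-05). DPI in the presence of DNFB raised 5 and lowered 1, with a median of 0.76 against 0.10, and Bnip3, a mitochondrial protein of mitophagy and death, rose by 1.92 (limma adjusted p = 1.06e-06). With the covariate 4 were higher and 0 lower, and with only replicate 2 of DPI + DNFB 5 and 0, Bnip3 among them in both.

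Dld, dihydrolipoamide dehydrogenase, is the flavin subunit that the pyruvate, 2-oxoglutarate and branched-chain dehydrogenase complexes share. It was lower with DPI. The signal was 1182, 1229 and 1321 with DPI + DNFB, 1005, 1371 and 1021 with DPI, 1670, 2134 and 1399 with DNFB, 1362, 2277 and 2208 with H2O2, and 1792, 1646 and 1508 in non-treated cells. The 6 arrays with DPI reached 1371, and of the 9 arrays without it H2O2 replicate 1, at 1362, fell within their range. DPI alone lowered Dld, at -0.55 ± 0.181 (SE, n = 3 each, limma adjusted p = 0.0258), a call that ended without non-treated replicate 1 or 2 or DPI replicate 1 or 3, with values of -0.49, -0.55, -0.47 and -0.48, and with median centring, at -0.55 (adjusted p = 0.0621). With DNFB present, DPI gave -0.45 ± 0.181 (limma adjusted p = 0.048). That call was at the threshold and ended when any of 10 of the 15 arrays was left out, that is any except DNFB replicate 3, DPI replicate 2 and the H2O2 arrays, with values of -0.50 to -0.30. It ended in 22 of the 34 alternatives in all, among them quantile normalization, at -0.36 (adjusted p = 0.109), cyclic loess, at -0.35 (adjusted p = 0.124), a pseudocount of 1, no filter, every probe set tested, array weights, the actin ratio as a covariate, at -0.68 (adjusted p = 0.0872), and replicate 2 as the only DPI + DNFB array, at -0.47 (adjusted p = 0.207). DPI + DNFB against non-treated cells, at -0.40 ± 0.181, did not pass (limma adjusted p = 0.0961), and passed without H2O2 replicate 1 (adjusted p = 0.0459) and with median centring (-0.65, adjusted p = 0.0204). Neither DNFB, at 0.05 ± 0.181 (limma adjusted p = 0.878), nor H2O2, at 0.21 ± 0.181 (limma adjusted p = 0.448), passed. Dld and Etfdh each had a further probe set, below the filter.

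Of 19 listed partners of Dld in its complexes 15 were tested. With DPI alone 2 were higher and 3 lower, with a median of 0.12 against -0.01 over all genes. Ogdh and Dlst, the other subunits of the 2-oxoglutarate complex, fell by 0.70 (limma adjusted p = 0.000785) and 0.46 (limma adjusted p = 0.00121), and Pdk3, a kinase that switches off the pyruvate complex, rose by 0.75 (limma adjusted p = 0.00296). With DNFB present, DPI raised 5 and lowered 2, and Pdk1, another such kinase, rose by 0.82 (limma adjusted p = 0.000252). With the covariate 1 was higher, Pdk1, and 1 lower, and with only replicate 2 of DPI + DNFB 2 and 2. DNFB alone gave 2 calls, both lower, Dbt at -0.76 (limma adjusted p = 0.000905) and Dlst at -0.61 (limma adjusted p = 8.84e-05).

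Nqo1 reduces quinones with NADH or NADPH and is a textbook target of NRF2, the factor that drives antioxidant genes. It was dim, and 3 of the 15 arrays were below the pseudocount, 2 of them DPI + DNFB arrays. Its mean log2 signal was 6.35, and 6.03 over the 12 arrays other than DNFB, against a filter at 6.22, so the gene was tested only because its DNFB arrays were high, and its differences from DNFB are given as a description. The signal was 10.7, 79.1 and 11.6 with DPI + DNFB, 50.3, 56.6 and 10.4 with DPI, 213, 145 and 193 with DNFB, 101, 49.5 and 111 with H2O2, and 81.0, 101 and 62.6 in non-treated cells. The DNFB arrays lay above all others, and DPI + DNFB overlapped DPI and, through its replicate 2, H2O2 and non-treated cells. DPI + DNFB was below DNFB, at -2.29 ± 0.55 (SE, n = 3 each, limma adjusted p = 0.00199), a size that the pseudocount sets, at -3.00 with a pseudocount of 1 and -1.56 with one of 50. When DPI + DNFB was represented by replicate 2 only, this was -1.06 (adjusted p = 0.232), and with the actin ratio as a covariate -0.91 (adjusted p = 0.427). DNFB alone gave 1.04 ± 0.55 and DPI alone gave -0.96 ± 0.55, neither of which passed in the fit to all arrays (limma adjusted p = 0.193 and 0.208). The DNFB arrays let this gene through the filter. The p-values of its differences from DNFB therefore do not count as tests, in the fit to all arrays or to only the 2 groups compared. Nor does that of its interaction, which also contains the DNFB arrays. The interaction, as a description, was -1.34 ± 0.778. DPI + DNFB against non-treated cells, at -1.25, did not pass (limma adjusted p = 0.0864). Without DPI + DNFB replicate 2 the interaction was -1.95, and the difference from non-treated cells passed at -1.87 (limma adjusted p = 0.011). That fit kept only the DPI + DNFB arrays at 10.7 and 11.6, both below the pseudocount. With the actin ratio as a covariate these 2 differences were -0.06 and 0.43. With only replicate 2 of DPI + DNFB they were -0.10 and -0.02.

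The Nqo1 start is shown because NRF2 is known to act on the gene through an antioxidant response element. The window is chr8:107403206-107403455 on the minus strand of GRCm38.p6, the 250 bases before the RefSeq start.
Nqo1: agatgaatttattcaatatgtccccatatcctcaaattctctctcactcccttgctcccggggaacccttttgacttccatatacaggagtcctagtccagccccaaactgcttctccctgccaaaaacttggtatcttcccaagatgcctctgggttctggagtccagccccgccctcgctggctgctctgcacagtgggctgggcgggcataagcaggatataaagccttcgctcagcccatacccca
The core TGACNNNGC was searched on both strands and was not in this window, nor in that of any of the 8 members with one, while 10.2% of the 32851 windows hold it. This says nothing of NRF2 at these genes, since the element can lie outside the window.

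Of 30 genes listed as targets of NRF2, Nqo1 aside, 26 were tested. DNFB raised 14 and lowered 3, with a median of 0.55 against -0.06 over all genes, and DPI in the presence of DNFB raised 6 and lowered 16, with a median of -0.79 against 0.10. Sqstm1, an adaptor of selective autophagy, fell by 2.54 in that comparison (limma adjusted p = 1.55e-11), and Blvrb, biliverdin reductase B, also called flavin reductase, fell by 2.46 (limma adjusted p = 1.59e-08). With the covariate, and with only replicate 2 of DPI + DNFB, 3 were higher and 15 lower, Sqstm1 and Blvrb among the lower ones. With DPI alone 5 were higher and 10 lower, and Gclm, of glutathione synthesis, fell by 1.21 (limma adjusted p = 2.74e-06), while Ugdh, which makes UDP-glucuronate, rose by 1.82 (limma adjusted p = 8.9e-08).

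Nqo2 is the relative of Nqo1 that uses dihydronicotinamide riboside as its donor. Its 3 probe sets did not give the same calls. The brightest, 1449983_a_at, had a signal of 604, 402 and 769 with DPI + DNFB, 577, 478 and 429 with DPI, 346, 338 and 345 with DNFB, 470, 298 and 398 with H2O2, and 479.9, 378 and 431 in non-treated cells. The DPI + DNFB and DNFB arrays did not overlap, while neighbours in the order of group means all did. DPI raised Nqo2 in the presence of DNFB by 0.71 ± 0.215 (SE, n = 3 each, limma adjusted p = 0.0107). This was 0.51 without DPI + DNFB replicate 3 (adjusted p = 0.0773), 0.44 with median centring (adjusted p = 0.0719), 0.22 with replicate 2 as the only array (adjusted p = 0.575) and 0.22 with the covariate (adjusted p = 0.661). DNFB at -0.31 ± 0.215 (limma adjusted p = 0.352) and H2O2 at -0.16 ± 0.215 (limma adjusted p = 0.653) did not pass on this probe set. Without DPI + DNFB replicate 2, its interaction (0.77, adjusted p = 0.0402, or 0.52 and 0.213 with all arrays) and DPI + DNFB against non-treated cells (0.65, adjusted p = 0.0195, or 0.41 and 0.155 with all arrays) passed. With the covariate these 2 values were 0.06 and -0.19, and with only replicate 2 they were 0.03 and -0.09.

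The other Nqo2 probe sets were lower with DNFB and with H2O2. Probe set 1455590_at had a signal of 148, 215 and 269.9 with DNFB, 199.9, 321 and 133 with H2O2, and 383, 469 and 424 in non-treated cells, without overlap of either treated group with the non-treated one. In the fit to every probe set it fell by 0.997 with DNFB (limma adjusted p = 0.00832) and by 0.99 with H2O2 (limma adjusted p = 0.00759), and it rose by 1.05 with DPI in the presence of DNFB (limma adjusted p = 0.00281), but this was 1.09 with the actin ratio as a covariate (adjusted p = 0.0684) and 0.86 with only replicate 2 of DPI + DNFB (adjusted p = 0.105). The dimmer 1436189_at fell by 1.42 with DNFB (limma adjusted p = 0.0113) and by 1.21 with H2O2 (limma adjusted p = 0.0261). As a mean over its probe sets, Nqo2 passed with DNFB at -0.91 (limma adjusted p = 0.00195), with H2O2 at -0.79 (limma adjusted p = 0.00533) and in the interaction at 0.87 (limma adjusted p = 0.0233). Taken singly, 0 of the 3 probe sets passed the interaction. The mean was not fitted with the covariate or with only replicate 2 of DPI + DNFB. On 1436189_at the interaction was 0.36 with the covariate and 0.76 with only replicate 2. Which transcripts each probe set reads was not analysed here.

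**Figure D4:**
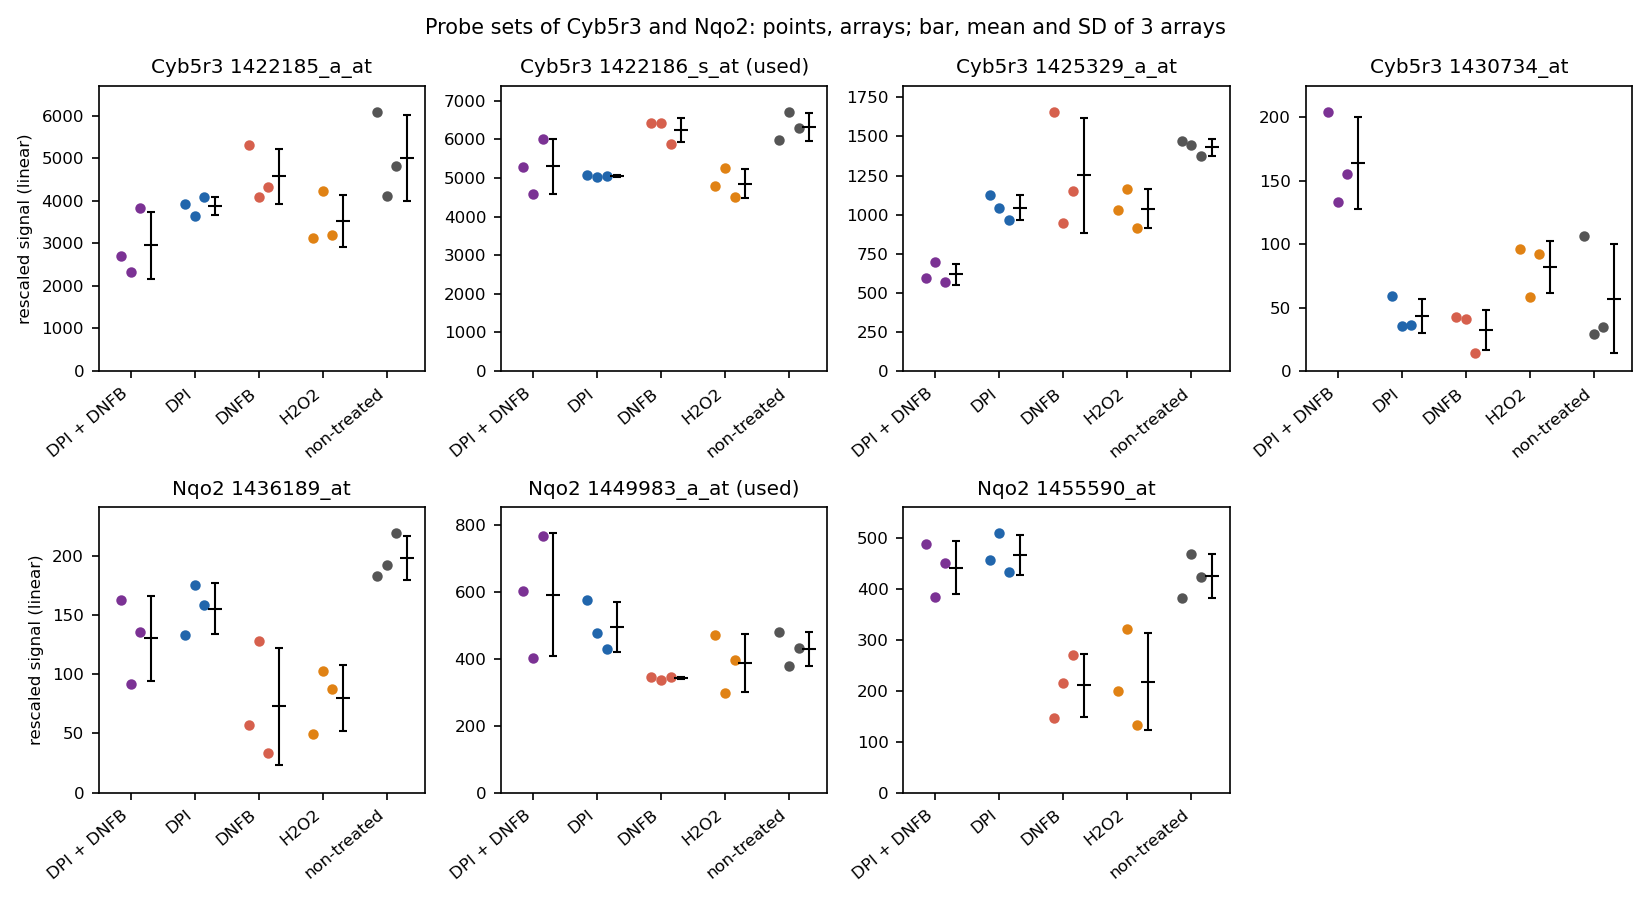
Rescaled linear signal (y axes, starting at 0) of the 4 Cyb5r3 and 3 Nqo2 probe sets on 15 arrays by group; points are arrays, bars the mean and SD of 3 arrays, and "used" marks the probe set of highest mean. Nqo2 1455590_at lies at 133 to 321 with DNFB and H2O2 and at 383 to 510 in the other groups, while 1449983_a_at shows no such gap, and Cyb5r3 1425329_a_at lies at 569 to 694 with DPI + DNFB and at 915 or more in the other groups.

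Cyb5r3 passes electrons from NADH to cytochrome b5 for fatty acid desaturation and sterol synthesis. On its brightest probe set, 1422186_s_at, it had a signal of 5282, 4595 and 6020 with DPI + DNFB, 5070, 5030 and 5052 with DPI, 6419, 6422 and 5891 with DNFB, 4797, 5249 and 4504 with H2O2, and 5980, 6713 and 6283 in non-treated cells. The DPI and H2O2 arrays lay below all non-treated and DNFB arrays, and DPI + DNFB overlapped every group. DPI alone lowered Cyb5r3, at -0.32 ± 0.105 (SE, n = 3 each, limma adjusted p = 0.0232), and H2O2 lowered it, at -0.38 ± 0.105 (limma adjusted p = 0.00875). DNFB gave -0.02 ± 0.105 (limma adjusted p = 0.934) and stood above H2O2 by 0.37 ± 0.105 (limma adjusted p = 0.0228). The DPI call ended without non-treated replicate 2 or 3 or any of the 3 DPI arrays, with values of -0.33 to -0.28, and with median centring, at -0.32 (adjusted p = 0.0619). The difference between DNFB and H2O2 ended without DNFB replicate 1 or 2 or H2O2 replicate 1 or 3, with values of 0.34, 0.34, 0.36 and 0.31. As a mean over the 4 probe sets, the DPI, H2O2 and DNFB against H2O2 values were -0.32 (adjusted p = 0.0966), -0.20 (adjusted p = 0.346) and -0.02 (adjusted p = 0.943). That mean includes the dim 1430734_at, which was above the filter only through its DPI + DNFB arrays. Taken singly, 3 of the 4 probe sets passed as lower with H2O2, and the remaining 1 had the opposite sign. With DPI 2 passed as lower. For DNFB against H2O2 1 passed as higher and 1 had the opposite sign to 1422186_s_at.

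On another Cyb5r3 probe set, 1425329_a_at, the DPI + DNFB arrays lay apart from the rest. It had a signal of 592, 694 and 569 with DPI + DNFB, and the lowest of the other 12 arrays was an H2O2 array at 915. Against non-treated cells it fell by 1.19 ± 0.165 in the fit to every probe set (SE, n = 3 each, limma adjusted p = 2.53e-05), with -0.81 under the actin covariate (adjusted p = 0.0889) and -1.02 with only replicate 2 of DPI + DNFB (adjusted p = 0.00731). The dim 1430734_at had 204, 133 and 155 with DPI + DNFB and at most 106 elsewhere, and it was above the filter only through those 3 arrays, so no difference is given for it. On 1422186_s_at the same comparison was -0.26 ± 0.105 and did not pass (limma adjusted p = 0.0601), though it passed at -0.51 with median centring (adjusted p = 0.00285), at -0.36 without DPI + DNFB replicate 3 (adjusted p = 0.0157) and at -0.46 with replicate 2 as the only array (adjusted p = 0.02). Against DNFB it was -0.24 ± 0.105 and did not pass (limma adjusted p = 0.0655), and it passed at -0.52 with median centring (adjusted p = 0.002), at -0.47 with the covariate (adjusted p = 0.0242), at -0.34 without DPI + DNFB replicate 3 (adjusted p = 0.0148) and at -0.44 with only replicate 2 (adjusted p = 0.0154). On a further probe set, 1422185_a_at, the difference from non-treated cells was -0.77 ± 0.172 in the fit to every probe set (limma adjusted p = 0.00207). That was -1.17 with the covariate (adjusted p = 0.0212) and -1.08 with only replicate 2. Against DNFB this probe set gave -0.65 ± 0.172 (limma adjusted p = 0.00503), -0.98 with the covariate (adjusted p = 0.0104) and -0.96 with only replicate 2. On 1425329_a_at, in the same fit, the difference from DNFB was -0.96 ± 0.165 (limma adjusted p = 0.000114), and -0.65 with the covariate (adjusted p = 0.0679). From DPI it was -0.74 ± 0.165 (limma adjusted p = 0.00302), and -0.38 with the covariate (adjusted p = 0.494). With only replicate 2 of DPI + DNFB these 2 were -0.80 and -0.57. All of these differences stand beside the raised 3'/5' ratios of the same 3 arrays.

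The arrays came with 2 scaling targets, and the 30 calls of members were set beside the same values within each, where a group has 1 or 2 arrays. All 30 kept their sign at both targets, among them the Nqo1 difference from DNFB, which is a description only. Xdh with DPI was 0.77 within the arrays of target 500 and 0.73 within those of 250, with DPI in the presence of DNFB 0.91 and 1.35, and with DNFB -0.30 and -0.83. Etfb with DPI in the presence of DNFB was 1.13 and 0.87, with DNFB -0.60 and -0.45, and in the interaction 0.87 and 0.63. Etfdh with H2O2 was -0.92 and -0.31, and for DPI + DNFB against DPI -1.22 and -0.62. Against non-treated cells with DPI + DNFB it was -0.93 and -0.14. For Aifm1 the values were -0.73 and -0.45 with DNFB and -0.64 and -0.78 with H2O2. Nqo1 with DPI in the presence of DNFB was -1.68 and -3.08, Nqo2 0.69 and 0.78, Dld -0.74 and -0.37, and Etfa -0.16 and -0.50. Cyb5r3 with DPI was -0.36 and -0.24, and Dld -0.41 and -0.82.

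Por hands electrons from NADPH to the cytochromes P450, to heme oxygenase and to squalene monooxygenase, and its partners were listed together with those of Cyb5r3. Of 27 such genes 22 were tested. DPI alone raised 7 and lowered 3, with a median of 0.11 against -0.01 over all genes. Cyp1b1, a P450, fell by 2.68 (limma adjusted p = 9.62e-05), and Scd1, a fatty acid desaturase fed by cytochrome b5, rose by 0.84 (limma adjusted p = 8.81e-06). With DNFB present, DPI raised 5 and lowered 6: Scd2, a further desaturase, rose by 1.94 (limma adjusted p = 7.36e-10), and Hmox1, heme oxygenase, fell by 3.89 (limma adjusted p = 2.17e-09). With the covariate 3 were higher and 3 lower, and with only replicate 2 of DPI + DNFB 4 and 3, and Scd2 and Hmox1 passed in both. DNFB alone raised 5 and lowered 5, with Scd2 down, at -1.47 (limma adjusted p = 5.94e-08), and Cyp1b1 down, at -2.20 (limma adjusted p = 0.000795).

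Other enzymes with a flavin, 32 of 43 listed ones tested, were split in all 3 comparisons: 2 higher and 6 lower with DPI, 5 higher and 8 lower with DPI in the presence of DNFB, and 6 higher and 4 lower with DNFB. Of all genes, 31.8%, 44.2% and 24.4% passed in these comparisons, and those shares stand beside the lists that follow as well. The medians of this list were -0.10, 0.02 and -0.07, against -0.01, 0.10 and -0.06 over all genes. Dhodh, the flavoenzyme of pyrimidine synthesis, fell by 1.76 with DNFB (limma adjusted p = 2.91e-05) and rose by 1.63 with DPI in its presence (limma adjusted p = 3.03e-05). Smox, a polyamine oxidase, did the opposite, at 1.43 with DNFB (limma adjusted p = 6.01e-07) and -1.87 with DPI in its presence (limma adjusted p = 9.12e-09). Of the NADPH oxidase subunits 7 of 14 were tested: DPI alone lowered 1, Ncf4, at -0.81 (limma adjusted p = 3.2e-06), and in the presence of DNFB it raised 3 and lowered 1. Cyba, the membrane subunit p22phox, rose by 0.94 there (limma adjusted p = 1.66e-06). Genes of flavin uptake and cofactor synthesis, 5 of 8 tested, gave 2 calls with DPI and 3 with DPI in the presence of DNFB, all of them lower. Of all genes, 18.4% and 21.3% were lower in these comparisons. The list medians were -0.21 and -0.63, against -0.01 and 0.10, and the counts describe these 5 genes only. Rfk, which makes FMN from riboflavin, fell by 0.67 with DPI in the presence of DNFB (limma adjusted p = 7.28e-05) and rose by 0.38 with DNFB alone (limma adjusted p = 0.0188). Slc25a32, which carries flavin into mitochondria, fell by 0.71 with DPI (limma adjusted p = 0.00779) and by 0.63 with DPI in the presence of DNFB (limma adjusted p = 0.0112). In these last 3 lists the calls for DPI in the presence of DNFB were 8, 3 and 2 with the covariate and 10, 3 and 3 with only replicate 2 of DPI + DNFB, against 13, 4 and 3. Of the genes named here for that comparison, Slc25a32 did not pass with the covariate (-0.77, adjusted p = 0.0717), while Dhodh, Smox, Cyba and Rfk passed in both. Gsr, Hmox1 and Txnrd1 stand in 2 of the 9 lists.

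Across the 15 arrays, the transcripts whose log2 signal followed that of each member most closely were named as a description of likeness, over arrays that share groups and scaling. Xdh ran closest with Aurka (r = 0.966), Dgat2 (0.965) and Cdkn2d (0.959). For Etfb the nearest were Pkmyt1 (r = 0.972), Cdca3 (0.967) and Gstp1 (0.967). Etfdh was followed by Slc35a5 (r = 0.944), Ncoa2 (0.913) and Utrn (0.903). Nqo1 had Yes1 (r = 0.907), Pdcl3 (0.894) and Stard3nl (0.891), and Nqo2 had Mex3a (0.91), Adcy2 (0.903) and Mxd3 (0.892). Aifm1 was nearest to Poglut3 (r = 0.906), Hells (0.897) and Dnal1 (0.869). Dld ran with Rrp7a (r = 0.89), Dctn4 (0.886) and Rap1b (0.874), Etfa with Tmco1 (0.906), Commd8 (0.889) and Bcas2 (0.871), and Cyb5r3 with Pctp (0.893), Ate1 (0.887) and Zdhhc14 (0.877).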

How the data were processed

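Total RNA of 15 samples of a mouse dendritic cell line was measured on Affymetrix arrays. Per the submitters' processing notes, the authors made the values with MAS5 in Affymetrix Expression Console, versions not given, and the deposited values are intensity on a linear scale. Their 2% trimmed mean was 500 on 9 arrays, and 250 on DNFB replicate 3 and on every replicate 1, 6 arrays in all. Each array was rescaled to 500, a departure from the planned use of the values as deposited, and log2(signal + 15) was taken. Of 45101 probe sets, 64 controls were left out. Of the other 45037, 34945 had 1 gene symbol, 932 several and 9160 none, and 34741 symbols matched the reference gene table. Probe sets with a mean log2 signal at or above the 40th percentile (6.22) were kept, and the one of highest mean stood for its gene.

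Group means were fitted to all arrays with limma 3.58.1 in R 4.3.3 (eBayes with trend, 10 residual degrees of freedom), and p-values were adjusted by Benjamini-Hochberg over the 12701 genes, separately for 8 comparisons and for a moderated F-test. The steps were tested on simulated data. The median SE was 0.197, and the number of arrays limits the precision. Members and gene lists were chosen with earlier results of these data known. From each list up to 4 genes that passed were eligible to be named, by largest fold. Sequences are from RefSeq (GRCm38.p6), and the table used here held windows for 8 of the 10 genes. Protein sequences were not used here. Alternatives changed the normalization, pseudocount, filter, probe set rule, variance model, blocks and the arrays used. The fits with only replicate 2 of DPI + DNFB, and the covariate for gene lists and single probe sets, were added after the data were seen.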

Additional observations from a re-analysis of the deposited data

Results flagged for a closer look

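DNFB had a different effect in cells with and without DPI for 4 members, by the interaction term of the limma fit. For Etfb the difference was 0.71 on the log2 scale (adjusted p = 0.00139): DNFB gave 0.24 with DPI, which did not pass, and -0.48 without it. For Etfdh it was -0.997 (adjusted p = 0.00657), with DNFB at -1.02 with DPI and -0.02 without it. For Aifm1 it was 0.52 (adjusted p = 0.0451), with -0.08 and -0.59, and for Etfa -0.50 (adjusted p = 0.0475), with -0.56 and -0.06. Of all genes, 31.1% passed the same test. With a covariate for the 3'/5' ratio of beta-actin 1 of the 4 was left, Etfb, with Etfdh at -0.77 (adjusted p = 0.108), Aifm1 at 0.50 (adjusted p = 0.164) and Etfa at -0.09 (adjusted p = 0.777). With median centring Etfb was 0.44 (adjusted p = 0.0613) and Aifm1 0.24 (adjusted p = 0.451). Of 34 alternatives, the call ended in 3 for Etfb, 3 for Etfdh, 17 for Aifm1 and 23 for Etfa. The 3 arrays of each group are too few for a check of single arrays that stand apart.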

How the results depend on the processing

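Of 30 calls of a member in a comparison, 8 held in all 31 alternatives other than the values as deposited and the fits within 1 scaling target: Xdh with DPI, with DPI in the presence of DNFB and with DNFB, Etfb with DPI in the presence of DNFB and with DNFB, Aifm1 with DNFB and with H2O2, and Etfdh with H2O2. The cause of the changes that follow was not tested, except that the values as deposited carry 2 scaling targets within each group. Calls are limma's, and counts are of the 9 members, with Nqo1 counted where it passed. Its p-values wherever the DNFB arrays enter are a description only.

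As deposited, 1 member, Nqo1, passed for DPI + DNFB against DNFB, which is a description only. In every other comparison and in the F-test 0 passed, with at most 2 at an unadjusted p under 0.05. On the arrays with target 500, where DPI + DNFB, DPI, H2O2 and non-treated have 2 arrays and DNFB 1, which is assumed to vary like the others, 1 member passed with DPI, 4 with DPI + DNFB against DNFB, 0 for DNFB against H2O2 (2 unadjusted) and 2 in the interaction. On those with target 250, with 1 residual degree of freedom, 1 passed with DPI, 1 with DNFB, 1 with H2O2, 5 in the F-test and 0 with DPI + DNFB against non-treated (4 unadjusted), against DPI (2 unadjusted), for DNFB against H2O2 (1 unadjusted) and in the interaction (5 unadjusted). With the actin ratio as a covariate, 3 passed with DPI + DNFB against DNFB, 0 against non-treated (3 unadjusted), 0 against DPI (1 unadjusted) and 1 in the interaction, and Etfa turned to 0.093 against DNFB and 0.13 against non-treated. With only replicate 2 of DPI + DNFB, an alternative added after the data were seen, 3 passed against DNFB, 2 against non-treated, 1 against DPI and 2 in the interaction.

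Median centring gave 1 call with DPI and 2 in the interaction. It moved the median log2 change of all genes to -0.17 against 0.10 for DPI + DNFB against DNFB, to -0.23 against 0.02 against non-treated, to -0.17 against 0.08 against DPI and to -0.14 against 0.14 in the interaction. The share of calls over all genes that were higher became 29.8% against 51.8%, 19.8% against 44.5%, 18.9% against 50.6% and 31.3% against 55.6% in the same order. The interaction count was 2 also with no filter, with every probe set tested, without the variance trend and with the target as a block. The DPI count was 1 without the trend and 5 with array weights and with only the groups compared. DNFB against H2O2 had 1 call without the trend and 1 with the mean over probe sets, where Cyb5r3 turned to -0.024. That Cyb5r3 mean includes the dim 1430734_at, which was above the filter only through its DPI + DNFB arrays.

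Leaving out 1 array at a time gave 1 to 4 calls with DPI, 4 to 7 with DPI + DNFB against DNFB, 3 to 6 against non-treated, 0 to 2 for DNFB against H2O2 and 2 to 6 in the interaction. In all 15 of these fits the count for DPI + DNFB against DNFB includes Nqo1, as a description only. With the replicate number as a block, the DPI count was 5, with Aifm1 (adjusted p = 0.0487) and Etfb (adjusted p = 0.045) added, and no other count moved by over 1.5 times. Same-numbered arrays of different groups had correlated deviations of -0.0027 to 0.144 (median 0.074), with 9 of 30 pairs over 0.1. Pairs of other numbers had -0.138 to 0.048 (median -0.033), with 0 of 60 over 0.1. Of the 15 arrays, 15 correlated best with an array of their own number. This is a hint from the data and not the design. The main fit did not take the numbers as pairs, since the labels name no pairing.

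Over all genes, the calls for DPI + DNFB against DNFB were 5617, but 829 as deposited, 3476 on the arrays with target 500, 2904 with the covariate and 3652 with only replicate 2. For DPI they were 4035, but 214 as deposited and 2558 and 2326 within the targets of 500 and 250. For DNFB they were 3105, but 210 as deposited and 1349 within the target of 500, and for H2O2 3591, but 176 as deposited and 1784 within the target of 250.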
